A study of Gossypium hirsutum with 24 samples.

Results

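In upland cotton (Gossypium hirsutum), 178 of 23977 probe sets peaked in anthers from 7 mm flower buds, with lower levels in anthers from 5 mm and 8 mm buds. The members were selected on measured values, namely the deposited log2 levels of the 9 anther arrays. Taking the median of the 3 arrays of each group, a member had a 7 mm anther level of at least 6 and exceeded both the 5 mm and the 8 mm anther level by at least 1.5. The height of the peak in anthers is therefore a description and carries no test here. Comparisons among buds without anthers, leaf and seedling take their differences from arrays that did not choose the members, and these were tested. Their p-values rest on a spread estimated over all 24 arrays, anthers included, and counts from a fit of the compared groups alone are given where they move. Counts under other fits, scalings or left-out arrays have no share over all probe sets beside them. They are not read as particular to the members.

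The study dissected anthers from buds of 5, 7 and 8 mm and stored the rest of each bud separately as the buds without anthers, so that the bud groups hold the other flower parts of the same sizes. Vegetative growth was represented by young leaf of month-old plants and by seedlings at 5 days after germination. There were 3 arrays in each of the 8 groups, called biological replicates in the series text, which does not say whether they came from separate plants. Where they did not, p-values measure only the spread between these samples. No cultivar, transgene or treatment is named in the labels, and they give no difference between the groups other than tissue and bud size.

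The anther wall contains the tapetum, a secretory cell layer that surrounds the pollen mother cells, feeds the microspores that come out of meiosis and supplies much of the material of the pollen wall. In flowering plants it is short-lived: it forms before meiosis, is most active around meiosis and the release of microspores, and then degenerates by programmed cell death. Transcripts that appear in anthers and vanish again within a narrow range of bud sizes are a known feature of this tissue. The series text gives a stage before, during and after meiosis for the buds it used, but the labels do not say which size stands for which stage, so sizes are used here. In whole anthers, fewer cells of a type and less RNA per cell cannot be told apart.

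The array annotation gave 1 gene symbol to 18 of the 178 members (10.1%, against 3.99% of the 10701 probe sets with a 7 mm anther level of at least 6). These 18 belong to 16 genes named only by a locus number, and RefSeq's table for assembly Gossypium_hirsutum_v2.1 held each of them. No product name was at hand, so no role is given for any member, the labelled tissues could not be checked against marker genes, and members without a locus number are called by their probe set identifier. For the same reason, 9 lists of pathway and cell type genes drawn up by product name had 0 members that could be looked up.

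On single arrays 64.5% to 67.1% of the probe sets, controls left out, exceeded background. Background was 2.23 on the log2 scale, the 95th percentile of 69 control probe sets without target, only slightly above the lowest value of 2.16. Hybridisation spike-ins (bioB, bioC and bioD) averaged 8.997 to 9.55 on 5 mm anther arrays, 9.16 to 10.03 on 7 mm anther arrays and 9.44 to 10.33 on 8 mm anther arrays, against 8.48 to 9.07 on the 9 bud arrays. The part of this offset in the differences between anthers and buds was not tested directly, and scaling to the spike-ins is given where it changes a value.

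Some arrays stood apart from their group, and for these transcripts the one that did so most was 5 mm anther replicate 1. The median level over the 178 members was 7.52 on that array and 6.17 and 6.19 on 5 mm anther replicates 3 and 4. It was 9.29, 9.30 and 9.16 on the 7 mm anther arrays, and 6.80, 7.69 and 6.02 on 8 mm anther replicates 1, 6 and 7. All 7 mm arrays thus lay above every other anther array by this median, with 5 mm replicate 1 and 8 mm replicate 6 nearest to them.

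**Figure D1:**
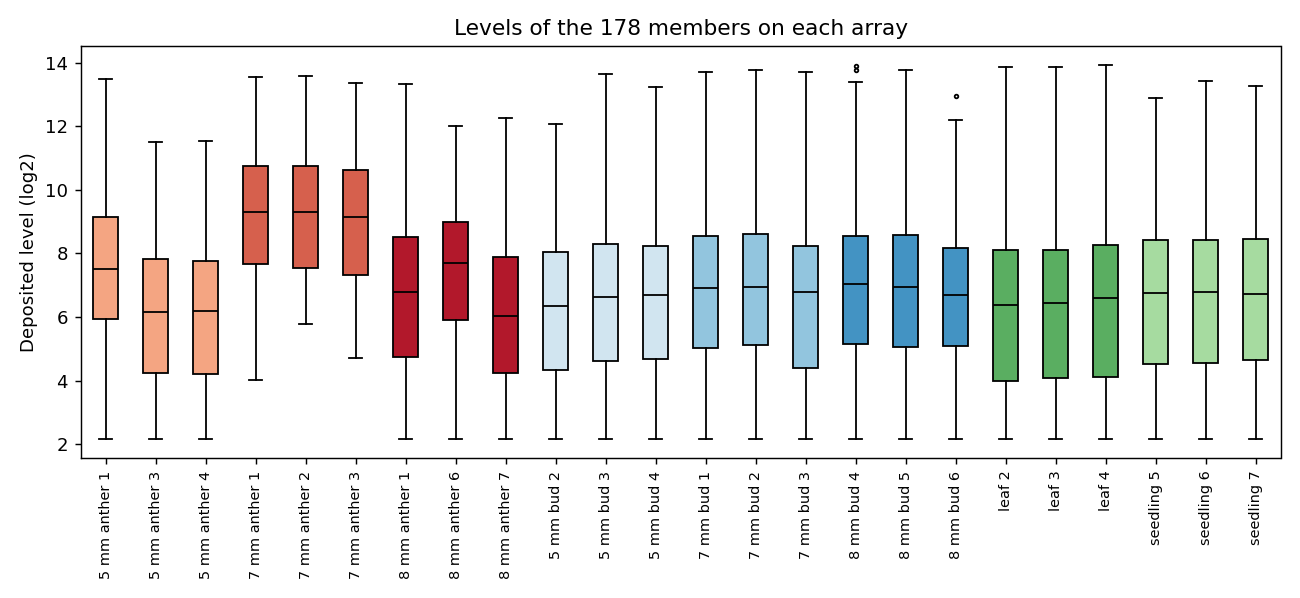
Deposited log2 level of the 178 members on each of the 24 arrays, labelled by group and replicate number; boxes span the quartiles with the median as a line, whiskers reach 1.5 times the box length and points lie beyond. The 7 mm anther medians lie between 9.16 and 9.30, and 5 mm anther replicate 1 stands at 7.52 above the 6.17 and 6.19 of its group.

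Single arrays show how uneven this was. On 5 mm anther replicate 1, 85 of the 178 members (47.8%) came within 1.5 of their 7 mm median, against 1 member on replicate 3 and 2 on replicate 4. On that array 55.6% of the members were at least 1 log2 unit above both other 5 mm arrays, as were 3.64% of all 17666 tested probe sets. In 8 mm anthers, 67 members (37.6%) came within 1.5 of their 7 mm median on replicate 6, 11 on replicate 1 and 14 on replicate 7. On replicate 6, 28.7% of the members and 1.41% of all tested probe sets were at least 1 above both other 8 mm arrays.

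The rule takes the median of 3 arrays, so that 1 high array does not remove a member. Without 5 mm anther replicate 1 the rule found 198 probe sets, 177 of them members, and without replicate 3 or 4 of the same group it found 136 and 144. Leaving out 8 mm anther replicate 6 gave 204 and leaving out replicate 7 gave 153. There were 89 members that met the rule whichever of the 9 anther arrays was left out.

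**Figure D2:**
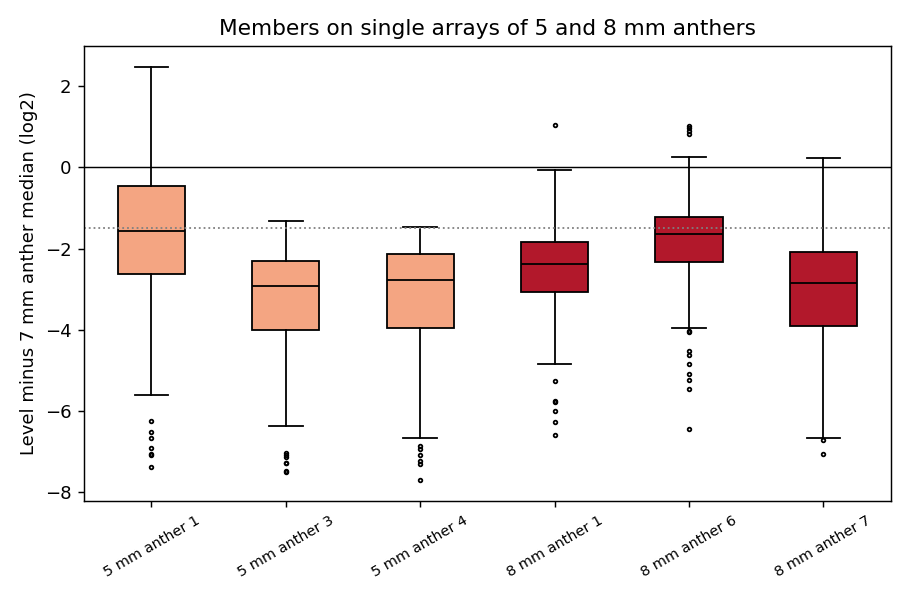
Level of each of the 178 members on single arrays of 5 mm and 8 mm anthers minus its 7 mm anther median (log2); boxes as quartiles and median, solid line at 0, dotted line at -1.5. The median difference is -1.57 on 5 mm replicate 1 and -1.65 on 8 mm replicate 6, and between -2.37 and -2.92 on the other 4 arrays.

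The median member stood 2.68 log2 units higher at 7 mm than at 5 mm and 2.29 higher than at 8 mm, as medians of the group medians. The smaller of the 2 differences ran from 1.5 to 5.79, with 93 members at 2 or more, 27 at 3 or more and 8 at 4 or more. On all 3 arrays of 7 mm, 120 members (67.4%) lay above all 6 arrays of the other sizes, as did 6.86% of all tested probe sets. In the fit over all 24 arrays, 129 members were called both higher at 7 than at 5 mm and lower at 8 than at 7 mm. They make up 72.5% of the members and 45.9% of the 281 probe sets so called, which are 1.59% of those tested. Because these contrasts chose the members, nothing is read from these shares.

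At the edges of the rule, GhiAffx.6239.1.S1_at was just inside with a 7 mm median 1.5004 above that of 8 mm, and GhiAffx.17190.1.S1_at just outside with 1.49. Ghi.7426.1.S1_s_at was just inside against 5 mm with 1.54, and GhiAffx.20071.1.S1_at just outside with 1.496. For the level at 7 mm, Ghi.227.1.S1_at was inside with 6.07 and GhiAffx.24344.1.S1_at outside with 5.999. These neighbours differ by less than the median SD over the 3 arrays, which for the members was 0.95 in 5 mm, 0.22 in 7 mm and 0.66 in 8 mm anthers.

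What came after the peak differed between members. The 8 mm level was within 1 log2 unit of the 5 mm level in 109 members, at least 1 above it in 47 and at least 1 below it in 22. GraAffx.17891.1.S1_at read 5.70, 5.61 and 6.22 on the 5 mm anther arrays, 13.11, 13.04 and 13.09 on those of 7 mm, and 10.64, 11.48 and 11.62 on those of 8 mm. At 8 mm it was still far above 5 mm, and no array of one size overlapped those of another. Ghi.4086.2.A1_at did the opposite, with 9.87, 7.18 and 6.78 at 5 mm, 9.62, 9.71 and 8.45 at 7 mm, but 3.02, 3.18 and 2.97 at 8 mm. Its 5 mm arrays overlapped those of 7 mm, while its 8 mm arrays lay far below both.

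The member with the sharpest peak was Ghi.3524.2.A1_at. It read 9.06, 8.74 and 8.97 on the 7 mm anther arrays, against 2.29, 2.59 and 2.59 for 5 mm and 3.18, 5.95 and 2.25 for 8 mm. Among the 5 and 8 mm anther arrays, 8 mm replicate 6 was the highest. Among buds it was also raised on 2 arrays of 8 mm, with 5.91 and 5.69 against 2.59 on the remaining array. GraAffx.14386.1.S1_at had 8.23, 7.81 and 7.49 at 7 mm, 2.88 on 5 mm replicates 3 and 4, but 8.57 on 5 mm replicate 1, which was above all its 7 mm arrays. Its 8 mm values were 3.47, 6.19 and 2.76. GhiAffx.42243.1.S1_s_at had 6.43, 5.77 and 6.93 at 7 mm, the lowest value of the table on all 5 mm arrays and 7.33 on 8 mm replicate 6 against 2.16 on both others. It was at least 17.7-fold higher in 7 mm than in 5 mm anthers, a bound set by background.

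Several members had high signal on the array. Ghi.4866.1.A1_s_at reached 13.56, 13.59 and 13.38 in 7 mm anthers. It had 10.57, 7.18 and 6.89 at 5 mm and 13.32, 11.37 and 8.78 at 8 mm, a wide spread in which 8 mm replicate 1 was near the 7 mm level. GhiAffx.21467.4.A1_at had 13.18, 13.27 and 12.29 at 7 mm after 13.50, 11.44 and 11.18 at 5 mm, and only 7.93, 8.10 and 6.84 at 8 mm. Gra.191.2.S1_s_at was more even, with 13.10, 13.26 and 13.12 at 7 mm against 10.07 to 10.54 at 5 mm and 10.32 to 11.26 at 8 mm. Levels of different probe sets depend on their probes and are not ranked against each other.

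The 18 members with a locus number fall into those low outside anthers and those also present elsewhere. Of the first kind, LOC107956851 read 10.77, 10.76 and 9.44 in 7 mm anthers, 10.62, 7.03 and 6.48 in 5 mm anthers and 7.68, 6.83 and 5.77 in 8 mm anthers. Its level on 5 mm replicate 1 lay within the range of the 7 mm arrays, and all anther arrays lay above all other arrays, where it did not exceed 4.19. LOC107893293 had 6.60, 6.40 and 5.95 at 7 mm, 6.63, 2.96 and 2.35 at 5 mm, and again low values of 2.37, 2.37 and 3.72 at 8 mm. It too was as high on 5 mm replicate 1 as at 7 mm, and besides anthers it was above 4 only in seedlings, with 4.44, 5.00 and 4.50.

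LOC107923176 was low on all 5 mm arrays and LOC107949717 on all but replicate 1, and both were partly retained at 8 mm. LOC107923176 had 2.43, 2.45 and 2.26 at 5 mm, 9.48, 9.51 and 9.37 at 7 mm, followed by 9.43, 7.76 and 3.90 at 8 mm. LOC107949717 had 6.20, 2.58 and 2.16 at 5 mm, 9.91, 9.86 and 9.40 at 7 mm, followed by 8.74, 7.54 and 2.81 at 8 mm. Neither was confined to anthers. In leaf LOC107949717 had 6.17, 6.01 and 5.51 and LOC107923176 had 5.08, 5.09 and 3.08. In seedlings LOC107949717 had 4.74, 5.12 and 5.23, and LOC107923176 is described with that comparison. In both genes 8 mm replicate 1 was the highest and replicate 7 the lowest array of 8 mm, and for LOC107923176 replicate 1 overlapped the 7 mm arrays. For LOC107923176 the smaller difference was 1.72, and leaving out 1 anther array ended its membership in 1 of 9 cases.

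LOC107945558 was represented by 2 members that behaved alike. Ghi.408.1.S1_x_at had 10.59, 8.38 and 8.87 at 5 mm, 12.15, 12.32 and 12.03 at 7 mm, followed by 10.39, 10.77 and 10.03 at 8 mm. Ghi.5964.1.A1_s_at had 10.60, 8.23 and 9.18, then 12.35, 12.52 and 12.29, then 10.42, 10.94 and 10.40. Neither overlapped between 7 mm and the other sizes. Probe sets with such suffixes can bind transcripts of several related genes.

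LOC107959059 was also represented by 2 members, and these agreed only within anthers. Ghi.7954.2.S1_at had 7.86, 7.59 and 7.75 at 7 mm, 2.27 on each 5 mm array and 4.99, 2.29 and 2.27 at 8 mm, and its 9 bud values lay between 2.24 and 2.47. Ghi.6088.2.A1_s_at had 7.24, 7.28 and 7.32 at 7 mm, 5.93, 5.70 and 5.26 at 5 mm, with 4.40, 5.95 and 3.56 at 8 mm, but 4.35 to 8.45 in buds and 8.18, 8.15 and 8.36 in leaf. Of 4 further probe sets for the gene, Ghi.6088.1.S1_s_at followed Ghi.6088.2.A1_s_at, with medians of 5.01, 6.35 and 4.62 at 5, 7 and 8 mm. Ghi.7954.1.S1_s_at did not peak, with 9.42, 8.68 and 6.88, and 2 others stayed at or near the lowest value. The gene's pattern therefore differs with the probe set.

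Other genes were measured by further probe sets too, 12 in all over 6 genes. LOC107957019 had 1 member, Ghi.9222.1.S1_s_at, with 12.27, 10.69 and 10.65 at 5 mm, 12.57, 12.61 and 12.63 at 7 mm, followed by 10.17, 10.97 and 12.26 at 8 mm. Its 3 other probe sets had medians of 13.50, 13.55 and 13.42, of 10.01, 9.42 and 9.78, and of 10.84, 11.85 and 11.31 at 5, 7 and 8 mm, and none of these met the rule. The 4 other probe sets of LOC107886061, LOC107909647 and LOC107945558 had medians of at most 2.63 in 5 and 8 mm anthers and of at most 3.79 at 7 mm. Each of these was highest at 7 mm among the anther sizes, though at a low level. Ghi.408.1.A1_x_at of LOC107945558, with 2.16, 3.79 and 2.28 at 5, 7 and 8 mm, missed the rule only by its level. The other probe set of LOC107949717 was at the lowest value in each group.

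LOC107932953 aside, which is described with the leaf comparison, the other locus members were present in most tissues. LOC107948407 had 13.17, 13.27 and 12.82 in 7 mm anthers and 11.32, 11.58 and 11.43 in 8 mm anthers. Its 5 mm arrays read 13.17, 11.50 and 11.54, so replicate 1 overlapped 7 mm. LOC107886061 had 8.74, 9.20 and 9.09 at 7 mm, above 7.84, 6.58 and 7.04 at 5 mm and above 7.40, 7.55 and 7.71 at 8 mm. LOC107959093 had 8.06, 7.77 and 8.15 at 7 mm against 5.38 to 6.18 at 5 mm and 5.39 to 6.53 at 8 mm. Neither of the last pair overlapped between 7 mm and the other sizes, and LOC107959093 matched its 7 mm level in seedlings, at 7.77 to 7.89.

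LOC107945134, LOC107909647, LOC107924318 and LOC107916177 reached levels in other tissues that were at or above those of 7 mm anthers. LOC107945134 had 9.47, 9.60 and 8.81 at 7 mm, 9.07, 7.19 and 7.03 at 5 mm, followed by 7.75, 8.25 and 7.74 for 8 mm and up to 9.51 in buds. It met the rule in 3 of the 9 cases with 1 anther array left out. LOC107909647 had 6.70, 6.74 and 6.34 at 7 mm, with 6.12, 3.76 and 3.14 at 5 mm, while its 7 mm bud arrays stood at 7.52 to 7.69. LOC107924318 had 7.37, 7.37 and 7.32 at 7 mm and 6.46, 4.94 and 5.05 at 5 mm, but 10.05 and 9.98 on 5 mm bud replicates 3 and 4 against 5.42 on replicate 2. LOC107916177 had 11.57, 11.65 and 10.74 at 7 mm, below all 3 leaf arrays, and its 5 mm replicate 1 with 12.55 exceeded all 7 mm arrays.

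**Figure D3:**
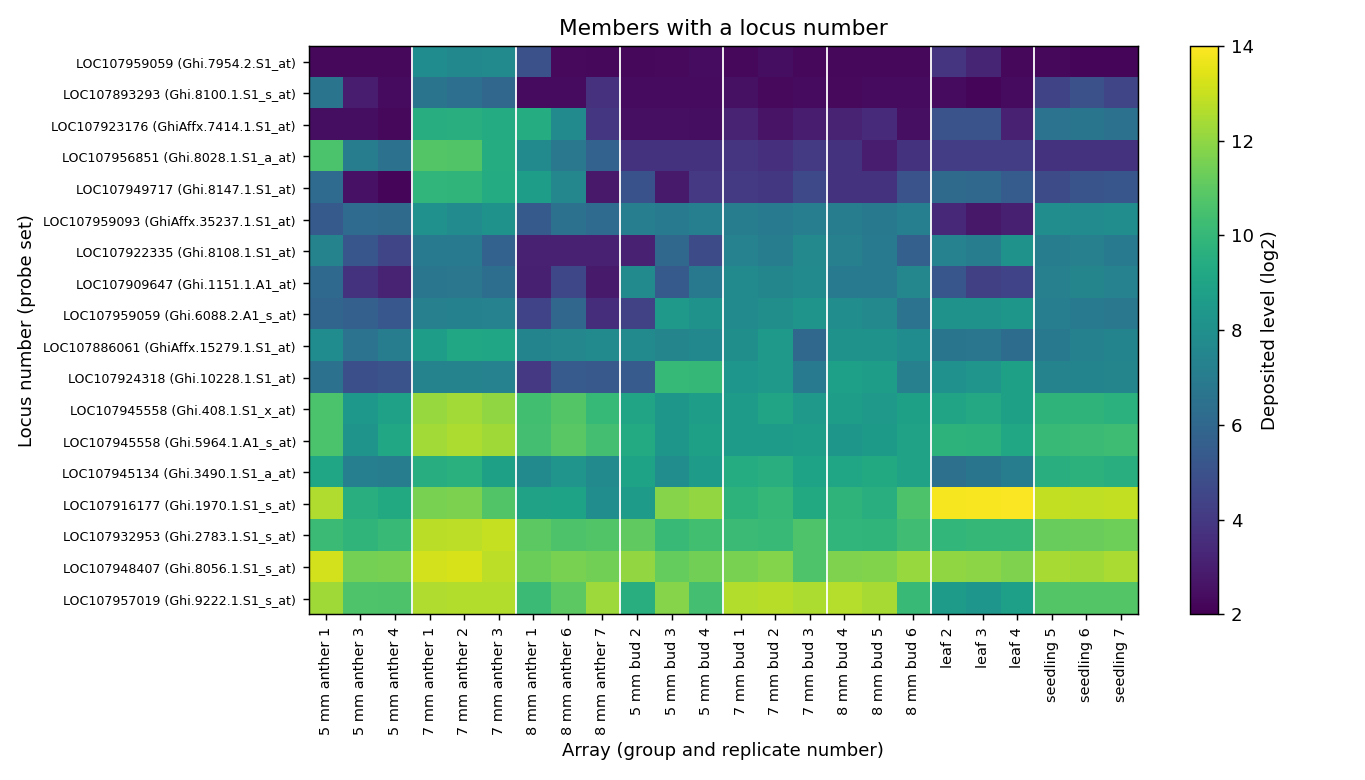
Deposited log2 level (colour, 2 to 14) of the 18 members with a locus number on each of the 24 arrays, ordered from the lowest to the highest 7 mm bud median and with white lines between groups. LOC107956851 lies between 9.44 and 10.77 on 7 mm anther arrays and is at most 4.19 outside anthers, while LOC107957019 is as high in 7 mm buds as in 7 mm anthers.

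Set against the rest of the bud, most members stood higher in anthers and a minority did not. In 131 members (73.6%) the 7 mm anther median was at least 1.5 above that of 7 mm buds, in 32 it was within 1.5 and in 15 it was at least 1.5 below. The median difference was 2.58, against 0.30 over the 10701 probe sets with a 7 mm anther level of at least 6. The fit called 135 members (75.8%) higher in 7 mm anthers than in 7 mm buds and 5 (2.81%) lower, where 13.1% and 14.9% of all tested probe sets were so called. The 7 mm anther arrays chose the members, so this excess is partly fixed by the rule and is not evidence. Scaling to spike-ins gave a median difference of 1.61, and 13 members lower in anthers.

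Over all tissues, the 7 mm anther median was the highest of the 8 groups in 135 members and at least 1.5 above every tissue other than anthers in 94 (52.8%). The same margin was met by 3.79% of the 10701 probe sets at this anther level. The 7 mm anther arrays chose the members, and the rule keeps 5 and 8 mm anthers from being the highest group. Both counts are thus partly fixed by the rule, the 135 has no share over all probe sets beside it, and nothing is read from them. Over these 94 members the median level was 9.89, 9.86 and 9.60 on the 7 mm anther arrays, 7.70, 6.21 and 6.28 at 5 mm and 7.57, 8.11 and 6.19 for 8 mm, against 5.06 to 6.24 on the arrays of other tissues. On 5 mm replicate 1 these members, too, were higher than on the other 5 mm arrays. Absence elsewhere is hard to count, since some members repeated 1 value above background over a whole group. Ghi.7954.2.S1_at, for one, read 2.27 on each 8 mm bud array. By the single background cutoff, 3 members were at background on all 15 arrays of buds, leaf and seedling. Besides GhiAffx.42243.1.S1_s_at these were GhiAffx.33914.1.A1_at and GhiAffx.42192.1.S1_at, at least 21.0-fold and 18.1-fold higher in 7 mm anthers than in each of these tissues. Ghi.4183.1.A1_at was at background on all 6 arrays of 5 and 8 mm anthers and had 6.13, 5.82 and 6.11 at 7 mm, at least 13.8-fold above each of these sizes. In GhiAffx.33914.1.A1_at the 7 mm values were 6.96, 6.55 and 6.38, and 5 mm replicate 1 with 4.47 and 8 mm replicate 6 with 5.15 were again the highest of their groups.

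By group medians, the largest anther excess over 7 mm buds was that of GhiAffx.4354.1.S1_at, with 10.90, 10.67 and 10.76 in 7 mm anthers and 3.45, 3.45 and 4.32 in 7 mm buds. It was low at 5 mm, with 3.85, 3.62 and 3.45, and intermediate at 8 mm, with 8.03, 8.55 and 6.09. Ghi.6420.1.S1_at was similar, with 9.96, 9.72 and 9.75 in 7 mm anthers and 2.88, 2.67 and 2.60 in 7 mm buds. In seedlings it had 5.43, 5.42 and 5.78, so that it was not confined to anthers.

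**Figure D4:**
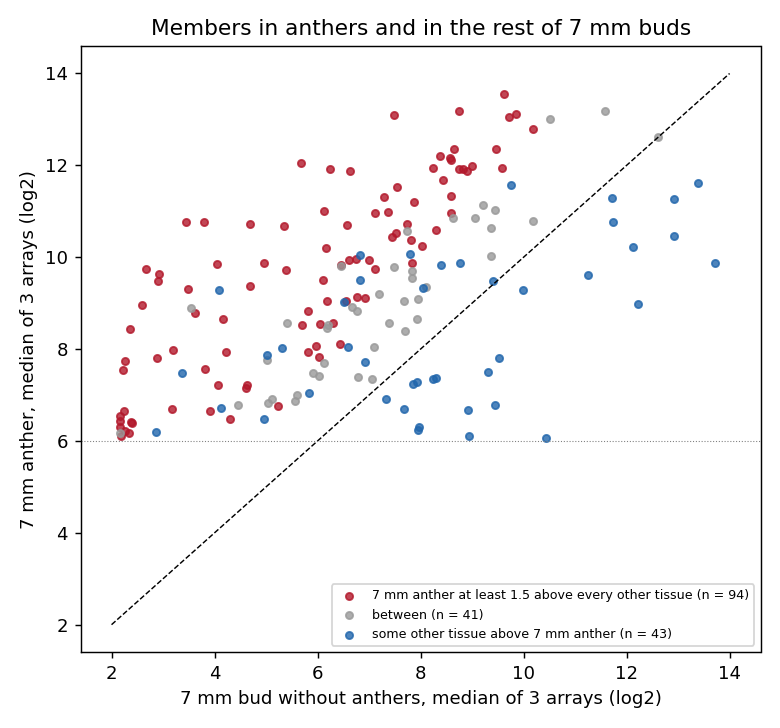
Median of 3 arrays in 7 mm anthers against that in 7 mm buds without anthers (both log2) for the 178 members, coloured by their standing against all tissues other than anthers; dashed line, equal levels; dotted line, the minimum anther level of 6. Of the 178 points, 24 lie below the dashed line.

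In 43 members some tissue other than anthers exceeded 7 mm anthers: a bud group was the highest in 19, leaf in 17 and seedling in 7. For 24 members, 7 mm buds stood above 7 mm anthers, and these had their peak in anthers at a level below that of the rest of the bud. Ghi.227.1.S1_at had 6.07, 5.83 and 9.20 in 7 mm anthers and 10.44, 10.08 and 10.49 in 7 mm buds. GhiAffx.58305.1.S1_s_at had 9.71, 9.88 and 10.76 in 7 mm anthers and 13.71, 13.78 and 13.70 in 7 mm buds. In both, replicate 3 was the highest of the 7 mm anther arrays, and neither overlapped between the tissues.

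Within groups, the level of these 24 members differed between arrays. Their median level was 7.38 on 5 mm anther replicate 1 against 5.46 and 5.54 on the others, 7.53, 7.43 and 8.63 on the 7 mm anther arrays, and 4.82, 6.34 and 4.76 at 8 mm. In buds it was 7.45 on 5 mm replicate 2 against 9.36 and 9.07, and 8.44 on 8 mm replicate 6 against 10.09 and 9.92. The array 5 mm anther replicate 1 was the highest of its group in 23 of them (95.8%), against 77.0% of all members and 30.7% of all tested probe sets, and 7 mm anther replicate 3 in 15 (62.5%), against 18.5% and 28.4%. Both 5 mm bud replicate 2 and 8 mm bud replicate 6 were the lowest of their groups in 20 (83.3%), against 35.4% and 43.3% of all members and 24.03% and 29.2% of all tested probe sets. Ghi.5815.1.S1_at shows it plainly, with 7.26, 2.43 and 2.43 in 5 mm anthers and 2.43, 10.28 and 7.50 in 5 mm buds.

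Transcripts of the rest of the bud were measured on the anther arrays as well. The 100 probe sets with the greatest excess of buds over anthers at both 5 and 8 mm, a list set without the 7 mm arrays, had a median level of 9.46 in 7 mm buds. In 5 mm buds their median was 8.88 on replicate 2 against 9.48 and 9.53 on the others. In 8 mm buds it was 9.06 on replicate 6 against 9.62 and 9.53, so these arrays were low for the list as well. On anther arrays their median was 2.97 to 3.51 at 5 mm, 3.01 to 3.34 at 7 mm and 2.96 to 3.19 at 8 mm. On each anther array 85 to 92 of the 100 exceeded the single background cutoff of 2.23. A repeated low value can also exceed this cutoff, as in a listed probe set with a median of 2.91 at 5, 7 and 8 mm alike. The count therefore does not show how many of these transcripts were present in anthers. Of the 100, 28 had a 7 mm anther median above those of 5 and 8 mm, against 19.8% of all probe sets. For 5 of them the margin was at least 1.5, against 0.968% of all probe sets. Members were 4 of the 100, against 178 of all 23977. Low 5 and 8 mm anther levels helped a probe set onto the list, which favours a 7 mm level above them. Nothing is therefore read from these shares. The list's highest 5 mm anther array was again replicate 1, with 3.51, and its highest 7 mm anther array replicate 3. The part of bud tissue in the levels of the 24 members was not tested.

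The same size steps were tested in the rest of the bud, where few members were called. The spread in these tests includes the anther arrays, where members varied more than all tested probe sets. The median SD was 0.95 against 0.22 in 5 mm anthers and 0.66 against 0.17 in 8 mm anthers. This makes a call less likely for a member, so likeness to all probe sets is not read from the shares called. From 5 to 7 mm, 1 member was called higher in buds (0.562%, against 0.73% of all tested probe sets) and 0 were called lower (against 0.232%), with 8 higher and 2 lower at an unadjusted p under 0.05. The median difference over the members was 0.13, between -1.22 and 3.33, and -0.003 over all probe sets. Bud arrays of 7 mm lay wholly above those of 5 mm in 20 members (11.2%, against 5.85%) and wholly below in 7 (3.93%, against 6.72%).

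The 1 call was LOC107922335, with 3.11, 6.06 and 4.73 in 5 mm buds and 7.33, 7.07 and 7.65 in 7 mm buds. It rose by 2.72 (SE 0.67, adjusted p = 0.04, limma), and the groups did not overlap. Its 3.11 on 5 mm bud replicate 2 is a repeated low value of this probe set, also read on each 8 mm anther array. The size of the rise and its SE rest partly on that value. The call was lost without 5 mm bud replicate 2, at 1.95 with an adjusted p of 0.149, without 5 mm bud replicate 4 and without any single 7 mm bud array, with adjusted p-values of 0.0672 to 0.0772. In anthers the same gene had 7.37, 5.22 and 4.52 at 5 mm, 6.98, 6.91 and 5.78 at 7 mm and 3.11 on each 8 mm array, so its 5 mm and 7 mm anther arrays overlapped. It was also lost in a fit of the compared groups alone, with an adjusted p of 0.559 (limma). Without 5 mm bud replicate 3, 5 members were called higher.

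From 7 to 8 mm, 0 members were called higher in buds and 0 lower, against 0.0736% and 0.175% of all tested probe sets, with 2 higher and 1 lower at an unadjusted p under 0.05. The median difference was -0.02, with a range from -1.89 to 2.14. Bud arrays of 8 mm lay wholly above those of 7 mm in 4 members (2.25%, against 4.29%) and wholly below in 17 (9.55%, against 7.13%). Within the bud groups, replicate 2 of 5 mm, replicate 3 of 7 mm and replicate 6 of 8 mm stood apart. When these arrays and replicate 1 of 5 mm anthers were left out, 4 members were higher and 3 lower from 5 to 7 mm, and 1 was higher from 7 to 8 mm. The shares of all probe sets called in that fit are not given, so these counts show nothing particular to the members.

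Compared with leaf, buds without anthers were called higher in 59 members and lower in 34. These are 33.1% and 19.1% of the members, against 15.9% and 15.6% of all tested probe sets, and the median difference was 0.15 against 0.00. Every member has a 7 mm anther level of at least 6, and the tested probe sets were not matched for it. Differences between such shares are therefore not read as particular to the members, here or in the comparisons with seedlings. With spike-in scaling the counts were 75 and 19. GhiAffx.1589.19.S1_at had 6.57 to 12.53 over the 9 bud arrays with a median of 12.32, and 2.43, 2.44 and 2.50 in leaf. It was higher in buds by 9.12 (SE 0.88, adjusted p = 4.17e-08, limma), and even its lowest bud array, 5 mm replicate 2, lay above leaf. GhiAffx.5828.1.S1_s_at was higher by 7.55 and GhiAffx.5523.1.S1_at by 6.68, and all 3 had 7 mm anther medians below 7 mm buds.

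In the other direction, some members stood higher in leaf than in buds. Ghi.5772.1.S1_a_at had 11.30, 11.33 and 11.52 in leaf and 2.36 to 5.26 in buds, a difference of -7.60 (SE 0.46, adjusted p = 4.95e-11, limma). In anthers it was at background at 5 mm and had 9.29, 8.99 and 9.31 at 7 mm and 8.08, 6.81 and 6.13 at 8 mm, so that it was at least 124.9-fold higher in 7 mm than in 5 mm anthers and still below leaf. GhiAffx.24134.1.S1_at, at 7.66, 7.48 and 7.08 in 7 mm anthers, differed between buds and leaf by -7.38, and Gra.2732.2.S1_s_at by -6.30.

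Of the 18 members with a locus number, 5 were called higher in buds than in leaf and 2 lower, against 15.9% and 15.6% of all tested probe sets. LOC107959093 had 6.83 to 7.19 in buds and 3.32, 2.75 and 3.06 in leaf, a difference of 4.01 (SE 0.19, adjusted p = 2e-12, limma). LOC107957019 was higher in buds by 3.07, LOC107909647 by 2.52, LOC107945134 by 2.26 and LOC107886061, with overlapping arrays, by 1.18. LOC107916177 had 13.86, 13.87 and 13.94 in leaf and 8.57 to 12.07 in buds, lower in buds by -3.73 on the log2 scale (adjusted p = 5.37e-05). LOC107922335 was lower in buds by -1.30 (adjusted p = 0.0491), with overlapping groups, and lost that call in 15 of 21 alternatives.

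Against seedlings, buds were called higher in 41 members (23.0%, against 14.8%) and lower in 33 (18.5%, against 14.7%), with a median difference of -0.01 against 0.005. With spike-in scaling these became 67 and 18. GhiAffx.5523.1.S1_at had 7.67 to 13.39 in buds and 3.72, 4.12 and 4.85 in seedlings, higher by 8.02 (SE 0.83, adjusted p = 1.13e-07, limma). Ghi.227.1.S1_at was higher in buds by 5.66, though its lowest bud array, 2.68, overlapped seedlings, and GraAffx.9655.1.S1_s_at was higher by 5.66 without overlap. The members lowest in buds relative to seedlings were again GhiAffx.24134.1.S1_at with -7.53, Ghi.5772.1.S1_a_at with -5.45 and Gra.2732.2.S1_s_at with -4.99.

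All 5 calls among the 18 locus members in this comparison were for lower levels in buds, with both members of LOC107945558 among them. Of all tested probe sets, 14.8% were called higher and 14.7% lower, and no direction is read from so few locus members. LOC107923176 had 2.45 to 3.48 in buds and 6.57, 6.66 and 6.48 in seedlings, a difference of -3.77 (SE 0.69, adjusted p = 0.000129, limma). LOC107916177 differed by -2.72 and LOC107893293 by -2.28. LOC107945558 differed by -1.49 on 1 of its members and by -1.06 on the other. With spike-in scaling LOC107893293 and both probe sets of LOC107945558 lost their calls, at -1.03, -0.43 and -0.002.

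Leaf and seedling differed in 52 members, 17 with higher and 35 with lower levels in leaf. The shares are 9.55% and 19.7%, against 8.47% and 8.97% of all tested probe sets. The 17 became 28 in a fit of leaf and seedling alone, and also without the 4 arrays named above. LOC107959093 had 7.88, 7.77 and 7.89 in seedlings, lower in leaf by -4.80 (SE 0.24, adjusted p = 1.42e-11, limma), with no overlap. GhiAffx.5828.1.S1_s_at differed by -4.42 and GhiAffx.1589.19.S1_at by -4.39. GhiAffx.63150.1.S1_at had 7.43, 7.30 and 8.28 in leaf and 3.50, 3.29 and 3.11 in seedlings, higher in leaf by 4.37 (SE 0.96, adjusted p = 0.00146). Ghi.6610.1.S1_at was higher in leaf by 3.79 and Ghi.5610.1.A1_at by 3.03.

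Among locus members 6 of the 18 were called lower in leaf and 0 higher, against 8.97% and 8.47% of all tested probe sets. No direction is read from so few. Besides LOC107959093 those called were LOC107945134 with -2.92, LOC107909647 with -2.71, LOC107893293 with -2.36, LOC107957019 with -2.23 and LOC107932953 with -1.30. With spike-in scaling LOC107893293, LOC107957019 and LOC107932953 lost their calls, at -1.09, -1.89 and -0.96. LOC107932953 had 12.76, 12.80 and 12.96 in 7 mm anthers, against 9.87 to 10.18 at 5 mm, 10.64 to 10.99 at 8 mm and 11.23, 11.27 and 11.36 in seedlings, with no overlap between 7 mm anthers and any of these.

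**Figure D5:**
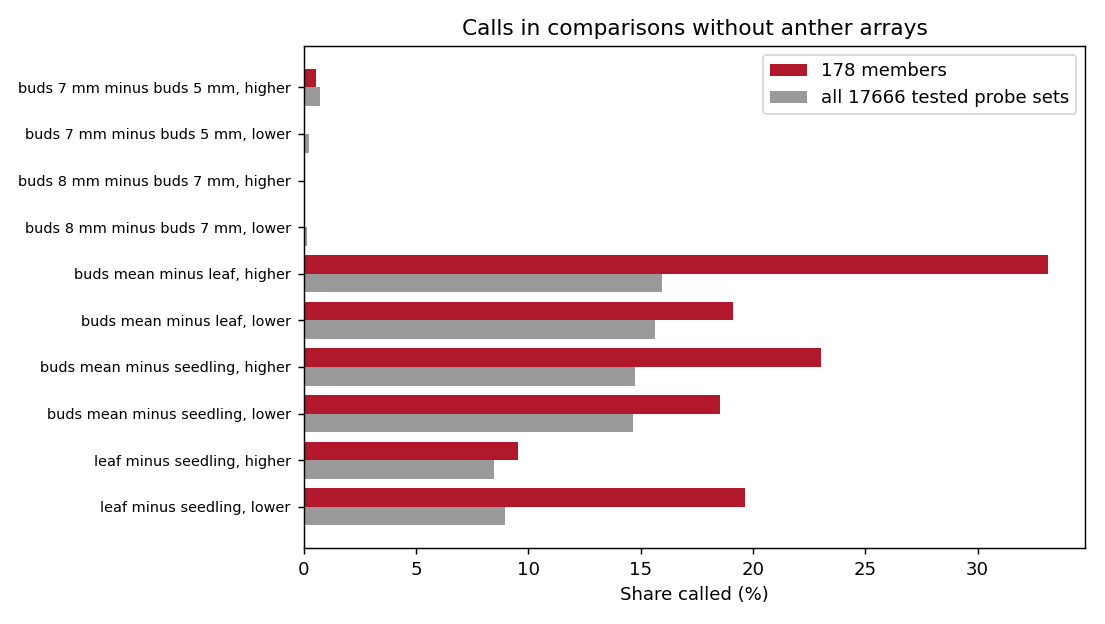
Share of the 178 members (red) and of all 17666 tested probe sets (grey) called in each comparison of groups without anthers, in percent, by direction. Red exceeds grey most for buds above leaf, 33.1% against 15.9%, and for leaf below seedling, 19.7% against 8.97%; both colours stay below 1% for the steps in bud size.

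Over the 15 arrays of buds, leaf and seedling the mean correlation between pairs of members was 0.015, against 0.018 between pairs of the 10701 probe sets with a 7 mm anther level of at least 6. Members that go opposite ways between tissues cancel in this signed mean. Over the 9 anther arrays it was 0.746, which the rule largely fixes. These correlations describe probe sets on shared arrays, which are not independent.

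Identifier prefixes and suffixes were counted as a feature that the rule did not use. Names starting with Gra or GraAffx were carried by 8.43% of the members, 29.5% of all probe sets and 10.2% of those with a 7 mm anther level of at least 6. Suffixes of probe sets that can bind several transcripts (s_at or x_at) were carried by 43.8%, 45.2% and 54.0%. A further 128 probe sets share the first parts of their identifier, the cluster number, with a member without being members. Of these 28.1% had a 7 mm anther median above both other sizes, and 9.38% by at least 1, against 19.2% and 1.35% of all probe sets that are not members, these 128 included. Unlike the prefixes, these levels come from the same 9 anther arrays that chose the members. The probe sets they are set against were not matched for 7 mm level, so nothing is read from the difference.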

How the data were processed

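Biotin-labelled cRNA from 24 samples, made with an Affymetrix 3′ IVT kit per the labels' protocols, was measured on cotton GeneChip arrays. The authors deposited log2 values per probe set. The submitters' processing notes name GCRMA, without a version. GCRMA normalizes between arrays, and 26.2% of values lay at its minimum, which compresses differences from there. No scanner files were used.

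The members, keyword lists and alternatives were chosen with earlier results of these data known. Of 24132 probe sets, 155 controls were left out. Probe sets above background on 3 or more arrays entered the tests. These were 17666, all 178 members among them. A linear model of 8 group means over all 24 arrays was fitted with limma 3.58.1 in R 4.3.3, with a two-sided moderated test and Benjamini-Hochberg adjustment over all tested probe sets in each comparison. Calls required a difference of at least 1 log2 unit and an adjusted p under 0.05. Bounds use background for a group at or below it on all its arrays. Named members are those with a locus number, the 5 with the highest 7 mm level, the largest smaller difference, and the largest or smallest excess over buds, the neighbours of each threshold, and the 3 most changed in each tested comparison. Of these, not all are described, and the 3 at background outside anthers and others named to illustrate a count were chosen after their values were seen. The annotation lists 743 probe sets, 697 with 1 symbol. The fit was tested on simulated data. No sequences were used here, and coordinates are left out since the annotation names no build. Figures were drawn with matplotlib 3.10.9.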

Additional observations from a re-analysis of the deposited data

Results flagged for a closer look

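Of the members, 9 moved one way in anthers and the other way in buds over the same size step, without overlap between arrays in either tissue. The rule fixed the direction in anthers and the difference between tissues was not tested; none of the bud differences was called. Bud arrays lay wholly lower at 7 than at 5 mm in 3.93% of the members and 6.72% of all tested probe sets, and wholly higher at 8 than at 7 mm in 2.25% and 4.29%, so that such bud differences were not more common among the members. From 5 to 7 mm, 6 members were higher in 7 mm anthers and lower in 7 mm buds. Their bud differences were -1.03 for GhiAffx.5524.1.A1_at, -0.67 for Ghi.3551.1.S1_s_at, -0.53 for GhiAffx.43988.1.A1_at, -0.43 for GhiAffx.45606.1.S1_at, -0.36 for Gra.2886.1.S1_s_at and -0.23 for Ghi.7848.1.S1_s_at. From 7 to 8 mm, 3 members were lower in 8 mm anthers and higher in 8 mm buds, by 1.52 for GhiAffx.6239.1.S1_at, 0.27 for Ghi.2668.1.A1_s_at and 0.18 for GhiAffx.52133.1.S1_s_at.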

How the results depend on the processing

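The number of arrays and the lowest value of the table limit these results. Thresholds moved the number of members from 178 to 367 with differences of at least 1, to 93 with at least 2 and to 100 without probe sets ending in s_at or x_at. Leaving out 1 anther array gave 136 to 204. Members called at both anther steps numbered 129, 78 with the replicate number as a block, 59 in a fit limited to anther arrays, and 86 to 150 with 1 array left out. The median excess over 7 mm buds was 2.58, 3.06 with median centring, 1.61 with spike-in scaling and 2.50 to 2.80 with 1 array left out. Members lower in 7 mm anthers than buds numbered 5, and 3 with median centring, 13 with spike-in scaling, 3 with no filter, 2 with the replicate block, 12 without the 4 arrays that stood apart, 9 in a fit of the compared groups and 1 to 3 with 1 array left out.

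Higher calls from 5 to 7 mm in buds numbered 1, but 0 with spike-in scaling, with no filter, with the replicate block and in a fit of the compared groups, and 0 to 5 with 1 array left out. Without the 4 arrays that stood apart there were 4 higher and 3 lower calls, and 1 higher call from 7 to 8 mm, which numbered 0 to 1 with 1 array left out. With spike-in scaling, buds were lower than leaf in 19 members, higher than seedling in 67 and lower in 18. Leaf exceeded seedling in 5 members with the replicate block, 28 without the 4 arrays and 28 in a fit of these groups, and was lower in 18 with the replicate block. Of 684 alternative values of 36 named differences, 644 kept direction and call, 40 lost the call and 0 reversed; the cause was not tested.

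In the groups checked, no pairing of samples by replicate number was seen, which deviations around means of 3 arrays cannot exclude. The deviations of 5 and 7 mm anthers correlated by -0.23 and -0.15 for shared numbers. The deviations of 5 and 7 mm buds correlated by -0.16 and -0.004 for shared numbers, those of 5 mm anthers and buds by -0.05 and -0.22, those of 8 mm anthers and buds by -0.01, and those of 7 mm anthers and buds by -0.03, 0.12 and -0.13, with 1 of 3 of these anther arrays correlating best with its own number. With the replicate block, 12 of the 36 named differences lost their call, at adjusted p-values (limma) of 0.0526 to 0.38.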

Other observations

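The mirror of the rule, with 5 and 8 mm anther levels of at least 6 that both exceed the 7 mm level by at least 1.5, was met by 15 probe sets, and the rule for a peak by 178. The mirror sets its minimum level on both 5 and 8 mm anthers and the peak rule on 7 mm anthers alone. These counts are therefore not compared. Without a minimum level at 7 mm, 232 probe sets met the rule for a peak.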
